A study of Mus musculus with 6 samples.

Results

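The regions described here are stretches of distal open chromatin shared by mouse embryonic fibroblasts (MEFs) of 4 conditions. They were selected from ATAC-seq peak lists. Overlapping or touching peaks of the 4 libraries gave 170532 merged regions. A region was kept when every library had a peak in it and when its centre lay more than 1 kb from the transcription start site (TSS) of any transcript of a protein-coding gene. Of all merged regions 5270 (3.09%) had a peak in all 4 libraries, and 783 of these were distal. The other 4487 were promoter regions.

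All cells were wild-type primary MEFs of the strain C57BL/6J, taken from E13.5 embryos. Norm-Pro and Hyp-Pro were sampled at passage 1, the first in 20% and the second in 3% oxygen. Norm-Sen came from cells that had become senescent in 20% oxygen, and Hyp-Imm from cells that had become immortalized in 3% oxygen. Tfcp2l1 ChIP-seq peaks came from senescent cells in 20% oxygen (ChIP Norm) and immortalized cells in 3% oxygen (ChIP Hyp). Every condition had 1 library, so values carry no replicate error and conditions were not tested against each other.

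In each of the 4 ATAC-seq cases the condition written in the deposited file's name was not the one in the sample label. Libraries are called by their labels. Which regions were chosen does not depend on this, whereas every value given for a named library does. The share of peaks on the X chromosome was low in Norm-Pro (1.08%) and Hyp-Imm (1.44%) and higher in Norm-Sen (4.44%) and Hyp-Pro (4.76%). The libraries held between 37770 and 69122 peaks.

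A promoter peak was found in all 4 libraries for 4 of 12 fibroblast markers, namely Col1a2, Twist1, Vim and Fn1, and in none for Col3a1 and Prrx1. Between 4 and 8 of the 12 had one in any given library. None of 4 epithelial, 4 blood or 4 neural markers had a promoter peak in all 4 libraries, and of 4 endothelial markers Kdr had one. The same share over all protein-coding genes is not given here. These few counts are therefore no measure of cell type.

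ATAC-seq reads DNA that the Tn5 transposase can reach. Away from promoters such DNA is mostly found at enhancers, where transcription factors bind to raise the activity of a gene at a distance, at insulators held by the zinc finger protein CTCF, and at starts of non-coding transcripts. Enhancers differ strongly between cell types and states, whereas CTCF sites tend to be shared. AP-1, a pair of Fos and Jun family proteins, opens many enhancers of fibroblasts, and Tfcp2l1 is a transcription factor of the CP2 family known from pluripotent stem cells.

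To show the kinds of sequence among the regions, stretches of 150 bases are printed from regions that ranked high in all 4 libraries within 3 classes. The highest ranked CTCF region, near Zfp521, is described below and not printed. Ranks are explained with the strengths below. All are on GRCm38 (mm10), taken from the RefSeq assembly GRCm38.p6, and read 5′ to 3′ on the plus strand. The first 3 held a match to the CTCF motif, marked by capitals. That of Gm31371 was exact, while those of Zxdb and 1600014C10Rik had 1 mismatch, the last of them on the minus strand.
Gm31371, chr8:20122130-20122279: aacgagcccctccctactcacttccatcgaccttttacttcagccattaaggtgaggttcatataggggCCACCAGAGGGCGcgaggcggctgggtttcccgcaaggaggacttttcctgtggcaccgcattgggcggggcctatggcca
Zxdb, chrX:94865664-94865813: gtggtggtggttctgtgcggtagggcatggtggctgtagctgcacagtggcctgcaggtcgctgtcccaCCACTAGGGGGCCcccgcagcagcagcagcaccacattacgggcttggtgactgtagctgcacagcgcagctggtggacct
1600014C10Rik, chr7:38201033-38201182: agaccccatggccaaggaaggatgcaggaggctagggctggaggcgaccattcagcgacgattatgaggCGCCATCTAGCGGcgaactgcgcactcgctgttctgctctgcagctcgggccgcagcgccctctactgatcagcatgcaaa

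The next 3 held the AP-1 motif, spelled TGACTCA or TGAGTCA, which capitals mark.
Gdi2, chr13:3373056-3373205: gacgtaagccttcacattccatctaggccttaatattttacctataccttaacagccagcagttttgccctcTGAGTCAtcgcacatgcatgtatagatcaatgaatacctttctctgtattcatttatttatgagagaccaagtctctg
Rnf24, chr2:131392945-131393094: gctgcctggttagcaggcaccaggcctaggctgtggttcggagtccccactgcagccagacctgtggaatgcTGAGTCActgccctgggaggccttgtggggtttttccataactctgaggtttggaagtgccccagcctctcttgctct
Zfp869, chr8:69716939-69717088: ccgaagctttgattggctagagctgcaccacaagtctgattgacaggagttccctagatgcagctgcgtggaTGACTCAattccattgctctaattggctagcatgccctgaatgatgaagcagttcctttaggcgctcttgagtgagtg

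The last 4 carried a Tfcp2l1 ChIP-seq peak, and capitals mark the 21 bases centred on its summit. The first 3 were the highest ranked regions of all. The stretch in Jarid2, a gene of the Polycomb repressive complex that the study names, was added after its values were seen.
Filip1l, chr16:57391455-57391604: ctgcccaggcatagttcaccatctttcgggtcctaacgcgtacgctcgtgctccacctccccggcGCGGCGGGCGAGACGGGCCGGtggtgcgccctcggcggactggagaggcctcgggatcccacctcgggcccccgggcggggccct
Gm8797, chr3:5860584-5860733: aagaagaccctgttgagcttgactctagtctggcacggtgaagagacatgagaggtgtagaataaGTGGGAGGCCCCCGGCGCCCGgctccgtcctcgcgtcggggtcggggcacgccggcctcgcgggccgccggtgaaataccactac
Rpusd4, chr9:35305344-35305493: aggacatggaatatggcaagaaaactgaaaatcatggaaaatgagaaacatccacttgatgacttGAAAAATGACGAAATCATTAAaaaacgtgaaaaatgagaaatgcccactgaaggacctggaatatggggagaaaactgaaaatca
Jarid2, chr13:44869554-44869703: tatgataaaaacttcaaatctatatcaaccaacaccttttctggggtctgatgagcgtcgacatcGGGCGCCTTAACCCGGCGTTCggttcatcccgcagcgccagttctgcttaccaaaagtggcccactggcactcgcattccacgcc

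Most of the 783 regions lay between genes, where here and below only protein-coding genes count. There were 562 (71.8%) outside every protein-coding gene, 197 (25.2%) in an intron and 24 (3.07%) in an exon. Distal regions open in 3 libraries lay in introns more often, at 32.5% (95% interval 30.5 to 34.7) against 22.2 to 28.4 for the regions open in all 4, and these exact Clopper-Pearson intervals did not overlap. Intervals here and below cover the counting of regions alone. The median distance to the nearest protein-coding TSS was 21572.5 bp, and 120 regions (15.3%) lay more than 100 kb away.

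The regions were wider than less shared ones, with a median of 306 bp against 236 bp for distal regions open in 3 libraries, 177 bp for those in 2 and 108 bp for those in 1. Width is tied to the choice, since a merged region grows with each peak in it. On the main chromosomes there were 753 regions, of which 21 lay on X and 4 on Y. A further 28 lay on 5 unplaced scaffolds, 21 of them on 1 scaffold, and 2 on the mitochondrial genome.

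Close to the distance limit, the nearest regions inside were 1019 bp from the start of Prdm1, 1034 bp from that of Sft2d3 and 1038 bp from that of Id1. The nearest outside were 978 bp from Ilk, 950 bp from Sertad3 and 945 bp from Ccin. The weakest peaks that still counted had a −log10 q of 1.72 at Zfp704 in Norm-Pro, 1.74 at Maml3 in Hyp-Imm and 1.77 at Fat1 in Hyp-Imm. The Zfp704 region shows how unequal the 4 libraries could be. Its peak stood at the 0.0991 percentile of the Norm-Pro list, but at 97.5, 91.2 and 90.2 in the other libraries.

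By sequence and annotation the regions on the main chromosomes fell into 4 kinds, with limits set after the values were seen. Repeated sequence, where under 90% of the 49-base words of a region occur once in the genome, made up 165 of 753 (21.9%). Another 97 (12.9%) lay within 1 kb of the start of a non-coding transcript. Of the rest, 167 (22.2%) were CpG-rich, with at least 50% GC and a ratio of observed to expected CpG of at least 0.6 in the central 200 bp. The other 324 (43.0%) were unique sequence with neither feature, and are called other unique regions.

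The make-up changed with the number of libraries. Repeated sequence was 9.41% (95% interval 8.14 to 10.8) of distal regions open in 3 libraries and 10.6% of those open in 2, against 19.0 to 25.04 for those open in all 4. CpG-rich regions were 11.5% of those open in 3 and 4.64% of those open in 2. Other unique regions went the opposite way, at 68.7% and 79.1%. The share near non-coding starts was 10.4% (9.07 to 11.8) in 3 libraries, and its interval overlapped that of 10.6 to 15.5 in all 4.

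**Figure D1:**
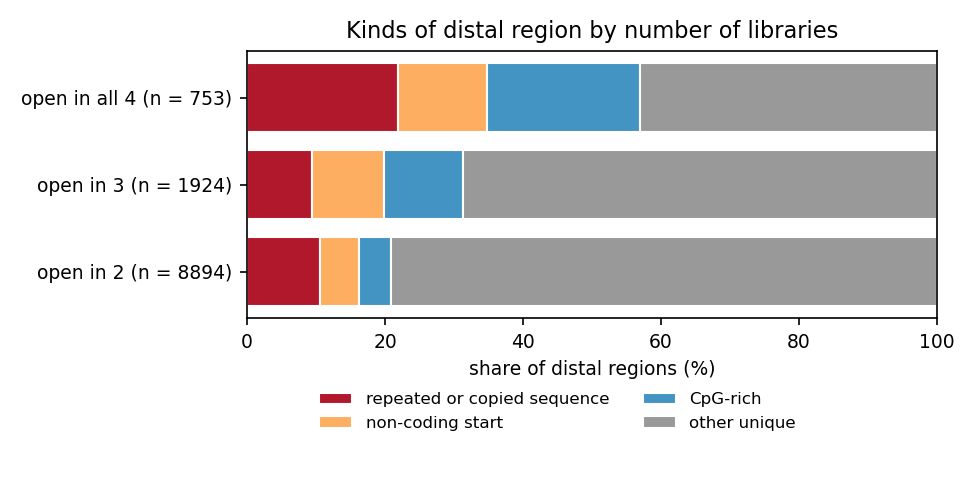
Share (%) of distal regions on the main chromosomes that were repeated sequence, near a non-coding start, CpG-rich or other unique, for regions open in all 4, 3 or 2 libraries. Other unique regions made up 43.0% of those open in all 4, 68.7% of those in 3 and 79.1% of those in 2.

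Strength was read as rank. MACS2 gives each peak a fold enrichment over the local background and a −log10 q, and a region took the percentile of its strongest peak by −log10 q within its own library, where 100 is the strongest. Peaks had to be present in all lists for a region to be chosen, so these ranks are a description. The median percentile was 92.9 for Norm-Pro, 92.3 for Norm-Sen, 88.7 for Hyp-Pro and 81.6 for Hyp-Imm. Below, 4 values in a row follow this order of libraries. Hyp-Imm had the lowest of the 4 percentiles in 340 regions (43.4%), Hyp-Pro in 213, Norm-Sen in 135 and Norm-Pro in 95.

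Hyp-Imm also had the fewest peaks, and it set the number of regions more than any other library. Without Hyp-Imm the rule gave 2020 distal regions, and without any other single library between 968 and 1083. The share with an AP-1 motif, described below, was then 20.7% and that with a Tfcp2l1 ChIP-seq peak 3.66%.

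**Figure D2:**
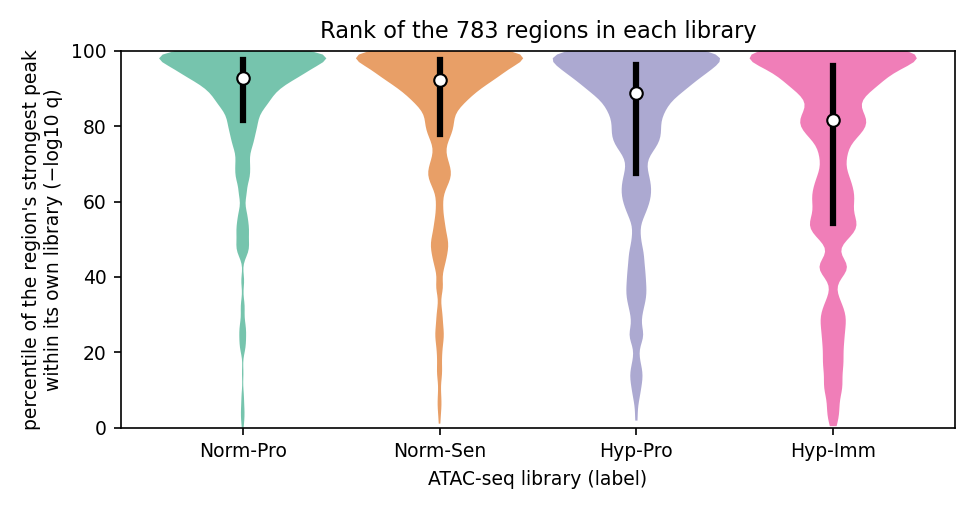
Percentile by −log10 q of the strongest peak of each of the 783 regions within its library, shown as a violin for each library by its label, with the median as a white point and the middle 50% as a black bar. Medians were 92.9, 92.3, 88.7 and 81.6, and 156 regions were below the 50th percentile in Hyp-Imm.

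Equal presence did not mean equal rank. Of the 783 regions 187 (23.9%) stood at or above the 90th percentile in all 4 libraries, 468 (59.8%) at or above the 50th in all 4, and 2 below the 50th in all 4. In 250 regions (31.9%) the highest and lowest percentile were more than 50 points apart, against 24.5% of promoter regions open in all 4 libraries. At the very top, 74 distal regions (9.45%) stood at or above the 99th percentile in all 4 libraries, and 28 of 4487 promoter regions (0.624%) did. Ranks in pairs of libraries had Spearman correlations from 0.525 to 0.663 over the same 783 regions, a description of lists that share these regions by choice.

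Peaks of the 4 libraries overlapped to different degrees. Each library had exactly 1 peak in 608 regions (77.7%). The 4 summits lay within 50 bp in 256 regions (32.7%) and within 100 bp in 459 (58.6%), with a median of 80.0 bp between the outermost ones. In 361 regions (46.1%) every library covered at least 50% of the merged region.

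Letters of 25 motifs were searched on both strands in the central 200 bp of each region, and a match is a description of the sequence, not a binding site. AP-1 matches were found in 111 of 753 regions (14.7%, 95% interval 12.3 to 17.5), against 5.94% of all merged regions on the main chromosomes. The CTCF motif, with 1 mismatch allowed, was in 64 (8.50%, 6.61 to 10.7), against 3.28% of all merged regions. Only 4 regions held both motifs, and 171 (22.7%) held at least 1 of them. Both shares depended on the strength asked of a peak. With peaks of a −log10 q of at least 5 alone, AP-1 was in 14 of 240 regions (5.83%, 3.23 to 9.59) and CTCF in 13 (5.42%, 2.92 to 9.08), where all regions merged from such peaks had 7.47% and 5.36%, both within the intervals of the distal regions. In a window of 100 bp AP-1 was at 9.69% and CTCF at 5.44%, against 3.37% and 2.00% of all merged regions. The letters CCCCGCCC, which Sp and Klf factors bind in promoters, were in 110 (14.6%, 12.2 to 17.3), against 4.45% of all merged regions.

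Sharing by more libraries did not mean ever more AP-1 or CTCF motifs. Among distal regions the AP-1 share was 5.81% in those open in 1 library, 12.9% in 2 and 20.6% (18.8 to 22.5) in 3, and then 14.7% in all 4. For CTCF the same series ran 2.75%, 8.07%, 13.0% (11.5 to 14.6) and 8.50%. In both cases the intervals for 3 and 4 libraries did not overlap. The Sp/Klf share went 1.34%, 3.02%, 7.69% (6.54 to 8.97) and 14.6%, and it was 38.3% in promoter regions open in all 4, where AP-1 was at 1.85% and CTCF at 3.71%. In windows 1 kb to each side of the regions AP-1 was at 3.14%, CTCF at 1.40% and Sp/Klf at 1.47%.

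Within the other unique kind the AP-1 shares for 3 and 4 libraries had overlapping intervals. In other unique regions the AP-1 motif was in 90 of 324 (27.8%, 23.0 to 33.0) open in all 4 libraries and in 356 of 1321 (26.9%, 24.6 to 29.4) open in 3, against 14.98% of those open in 2. It was in 2 of 165 repeated regions (1.21%), 7 of 97 at non-coding starts (7.22%) and 12 of 167 CpG-rich regions (7.19%). CTCF was in 35 other unique regions (10.8%, 7.64 to 14.7) against 14.2% (12.3 to 16.1) of such regions in 3 libraries, with overlapping intervals. Sp/Klf was in 56 CpG-rich regions (33.5%, 26.4 to 41.2) and in 47 of 222 such regions in 3 libraries (21.2%, 15.99 to 27.1).

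**Figure D3:**
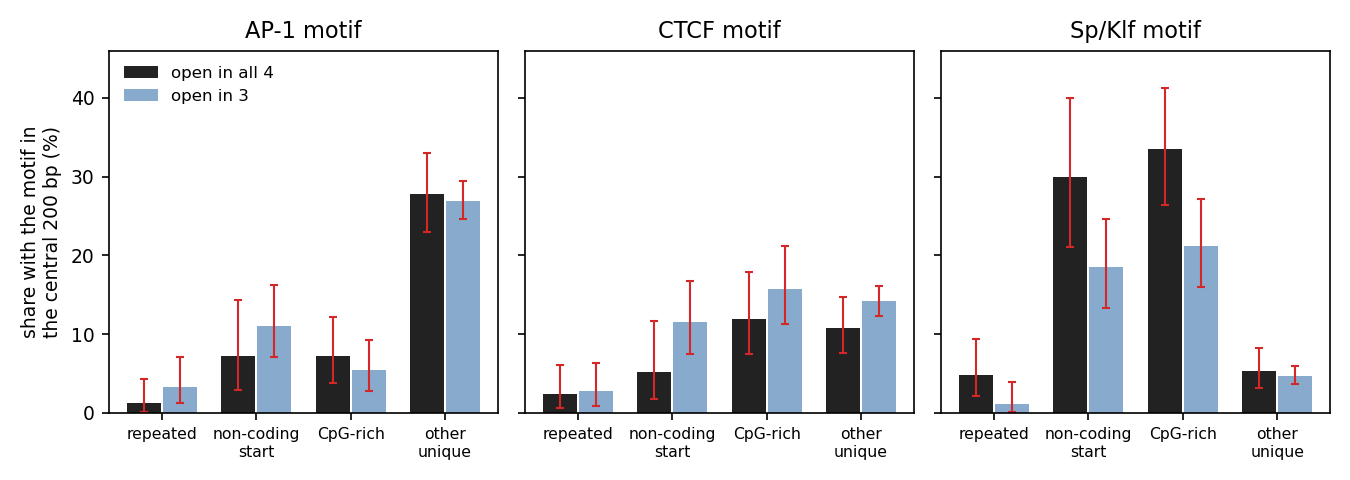
Share (%) of distal regions with the AP-1, CTCF or Sp/Klf motif in the central 200 bp, for repeated sequence, non-coding starts, CpG-rich and other unique regions open in all 4 or in 3 libraries. Red lines are exact 95% intervals. AP-1 stood at 27.8% and 26.9% in other unique regions, and Sp/Klf at 33.5% and 21.2% in CpG-rich ones.

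The search window keeps a motif close to the region centre, and the centre itself was nearer the summit than the motif was. An AP-1 motif was a median of 42 to 50 bp from the summit, depending on the library, and within 50 bp in 53.2 to 54.1% of the 111 regions, while the centre of these regions was a median of 36 to 37 bp away. A CTCF motif was a median of 52 to 64 bp away, and within 50 bp in 32.8 to 48.4% of the 64 regions, and their centre a median of 28.5 to 39.5 bp. Regions with AP-1 and no CTCF motif had median percentiles of 89.1, 89.8, 81.4 and 65.2, over 105 regions of at least 90% unique sequence. The 56 with CTCF and no AP-1 motif stood at 86.4, 86.6, 77.5 and 72.3.

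The printed AP-1 regions were picked for a high lowest percentile over the 4 libraries, so their high rank in each follows from that choice. The region nearest Gdi2, which encodes an inhibitor that keeps Rab proteins off membranes, lay between genes at chr13:3373002-3373395 and had folds of 14.6, 12.5, 15.1 and 15.02. It was the 1 AP-1 region with a Tfcp2l1 ChIP-seq peak, present in both ChIP-seq lists. The Rnf24 region at chr2:131392872-131393110 had folds of 7.56, 7.25, 7.75 and 7.56. The Zfp869 region at chr8:69716732-69717272 had folds of 6.71, 6.75, 8.94 and 6.90. All 3 stood above the 95th percentile in every library.

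Among CTCF regions the highest ranked lay near Zfp521, in repeated sequence, with a lowest percentile of 98.8 and folds from 9.15 to 17.6. The Gm31371 region at chr8:20122141-20122382 was also repeated, with 48.5% unique words, and its folds were 11.2, 6.81, 9.17 and 8.92. The Zxdb region at chrX:94865548-94865899 was fully unique and had folds of 8.04, 6.38, 7.26 and 8.30, with percentiles from 93.9 to 97.6.

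Of the 97 regions at non-coding starts, 45 lay by a lincRNA, 22 by a processed transcript and 6 by a miRNA gene. The nearest protein-coding TSS of these regions was a median of 23863 bp away. Several belong to well-known hosts and regulators, named here after their values were seen. The region by Snhg8, a host of small nucleolar RNAs, had percentiles of 91.8, 93.8, 96.6 and 95.9. That by Dancr, a non-coding RNA known to hold back differentiation, stood at 97.3, 93.2, 94.9 and 90.4. The region 445 bp from Mir210, a miRNA gene induced by HIF, held a CTCF motif and stood at 98.1, 94.9, 90.7 and 96.5. The region 95 bp from Trp53cor1, a p53-induced RNA gene beside the CDK inhibitor gene Cdkn1a, stood at 94.0, 92.7, 90.3 and 76.3.

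The highest ranks went mostly to sequence that occurs more than once. Of 72 main-chromosome regions at or above the 99th percentile in all 4 libraries, 58 (80.6%, 69.5 to 88.9) were repeated sequence, matched another of the 753 regions, or matched ribosomal or mitochondrial DNA. Of these 72, 0 held a CTCF motif, with an interval up to 4.99%, and 1 held an AP-1 motif. Median lowest percentile was 86.2 for repeated regions, 58.3 at non-coding starts, 61.2 in CpG-rich and 48.7 in other unique regions. Reads from several copies can be placed at 1 of them, and the part of this in the ranks was not tested.

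Many regions resembled each other. Of the 753, 125 (16.6%, 14.0 to 19.5) matched another of them over at least 49 bp at 90% identity or more. Among distal regions open in 3 libraries 6.60% (5.53 to 7.80) matched at least 1 of the 753 in this way. So did 7.80% of those open in 2 and 0.603% of promoter regions open in all 4. Every class was searched against the same 753 regions, and matches within the other classes were not searched. Of the 125, 48 (38.4%, 29.8 to 47.5) stood at or above the 99th percentile in all 4 libraries, against 24 of the other 628 (3.82%, 2.46 to 5.63).

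The matches joined these regions into 27 families. The largest held 19 regions on 13 chromosomes, led by the regions near Filip1l, Zc3h7a and Lars2 and holding both regions inside Jarid2. Its median match was 96.5 bp long at 97.2% identity, 12 of its 19 regions stood at or above the 99th percentile in all 4 libraries, and 10 had a Tfcp2l1 ChIP-seq peak. Next came a family of 15 near Gm14496 and others with no ChIP-seq peak, and then one of 13 with 1. The family of the Rpusd4 region had 7 regions, 5 at or above the 99th percentile, and that of the Chl1 region had 4, all with a ChIP-seq peak and all at or above the 99th percentile.

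The printed Jarid2 stretch belongs to the largest family. Its region at chr13:44869526-44869745, in an intron 28.9 kb from the nearest TSS, had folds of 22.96, 18.2, 19.9 and 21.7 and a peak in both ChIP-seq lists. It matched the region near Rnf219 over 136 bp at 96.3%, that near Tmtc2 over 116 bp at 95.7% and that near Kpna1 over 78 bp at 97.4%. The second Jarid2 region, at chr13:44869866-44870067, had folds of 10.1, 9.47, 10.2 and 9.76 and no ChIP-seq peak, and it matched the Filip1l region over 159 bp at 94.97%. By 49-base words the first was 97.7% unique and the second 54.5%.

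Matches to the ribosomal DNA locus of chromosome 17 were found for 5 regions. The reference used here holds no full 28S ribosomal RNA gene, and satellite repeat units were not searched, so matches to either were not measured for any region, those near Filip1l, Gm8797 and Rpusd4 and in Jarid2 included. A pair of regions near Col19a1 matched the mitochondrial genome, and both stood above the 99.9 percentile in every library, with folds from 16.4 to 27.6.

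Tfcp2l1 ChIP-seq peaks were found in 62 of the 783 regions (7.92%, 6.12 to 10.0), against 0.172% of all merged regions. They were in both ChIP-seq lists at 37 regions, in ChIP Norm alone at 9 and in ChIP Hyp alone at 16. Distal regions open in 3 libraries had one in 1.13% (0.708 to 1.70). The regions held 12.5% of the 393 ChIP Norm peaks and 9.15% of the 612 ChIP Hyp peaks.

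Over all 783 regions the share with a ChIP-seq peak was highest where ATAC-seq rank was highest. It was 8 of 315 regions (2.54%) with a lowest percentile under 50, 11 of 281 (3.91%) from 50 to under 90, 11 of 113 (9.73%) from 90 to under 99 and 32 of 74 (43.2%, 31.8 to 55.3) at 99 or over. Regions of at least 90% unique sequence gave 5 of 267, 9 of 218, 3 of 68 and 11 of 35 in the same order. Of those 11, however, 10 matched another of the regions or ribosomal DNA. Without any such sequence the counts were 5 of 263, 8 of 211, 1 of 62 and 1 of 14 (7.14%, 0.181 to 33.9), and all 4 intervals overlapped. That last interval, from 14 regions, also held the 31.4% found in the 35. Too few regions were left to show whether the rise remained, and the part of copied sequence in it was not tested. Promoter regions open in all 4 libraries gave 10 of 1300, 13 of 2185, 7 of 974 and 8 of 28. These were not split by matching sequence.

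**Figure D4:**
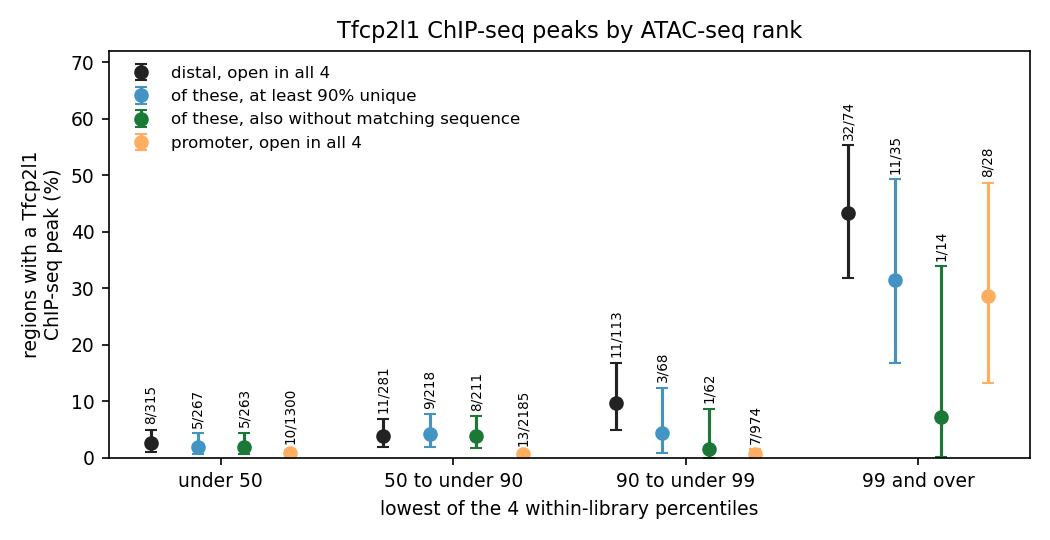
Share (%) of regions with a Tfcp2l1 ChIP-seq peak by the lowest of the 4 within-library ATAC-seq percentiles, for the distal regions open in all 4, those of them of at least 90% unique sequence on the main chromosomes, those also without a match to another region or to ribosomal or mitochondrial DNA, and promoter regions open in all 4. Lines are exact 95% intervals and labels give counts; the highest class held 32 of 74, 11 of 35, 1 of 14 and 8 of 28.

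Of the 56 bound regions on the main chromosomes 2 (3.57%, 0.435 to 12.3) had the Tfcp2l1 motif with up to 2 mismatches, against 0.669% of all merged regions, and the interval of these few counts reached below that share. Among the 56, 5 overlapped a tRNA gene, 28 were repeated sequence and 41 (73.2%, 59.7 to 84.2) were repeated, matched another of the regions, or matched ribosomal DNA. Without such sequence and the scaffolds the share with a ChIP-seq peak was 15 of 550 (2.73%, 1.53 to 4.46). No source used here gave the build of the ChIP-seq peaks, which were read as GRCm38.

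The 12 regions highest by lowest percentile were, with 1 exception, bound in both ChIP-seq lists. The Filip1l region, at chr16:57391368-57391732 in an intron of Cmss1, had ATAC-seq folds of 27.99, 23.1, 31.5 and 31.8 and ChIP-seq folds of 14.0 and 22.3 in ChIP Norm and ChIP Hyp. The Gm8797 region at chr3:5860314-5860857 had ATAC-seq folds of 26.8, 27.8, 29.6 and 30.1. The Rpusd4 region at chr9:35305182-35305597 had ATAC-seq folds of 23.1, 21.7, 25.4 and 30.1, was masked as repeat over its whole central 200 bp, and ranked first in both ChIP-seq lists.

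The next in order lay near Axin2, a negative feedback gene of Wnt signalling, then in introns of Chl1, a neural cell adhesion gene, of Cdk8, the kinase of the Mediator complex, and of the zinc finger gene Zc3h7a. Then came regions near Pak3, a p21-activated kinase gene, in an exon of Lars2, the mitochondrial leucyl-tRNA synthetase gene, in an intron of Kctd16, near Ly6c2 and on a scaffold. Axin2, at chr11:109011610-109012139, was 99.2% unique and CpG-rich, with folds of 19.7, 16.1, 19.1 and 22.2. The Kctd16 region was the exception with no ChIP-seq peak, although its folds ran from 19.2 to 27.2.

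The study also names Ezh2, the histone methyltransferase of Polycomb repressive complex 2. Both regions of its domain lay upstream of the gene, between genes. The one at chr6:47650429-47651347, 55.5 kb away, was CpG-rich with percentiles of 96.0, 91.5, 88.7 and 90.7 and a peak in both ChIP-seq lists. The other, at 77.6 kb, was repeated sequence with percentiles from 87.0 to 91.2 and no ChIP-seq peak.

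Regions were tied to genes as GREAT does, with a basal domain of 5 kb before and 1 kb behind the start that reaches up to 1 Mb towards the next gene. This gave 1146 of 21911 protein-coding genes (5.23%) with at least 1 of the regions. A few domains held many. Cwc22, a gene of a splicing factor that loads the exon junction complex, had 13 and Sfi1, a gene of a centrosomal centrin-binding protein, had 12. Gm15319 and Ube2e3 had 8 each, Adam29 and Gpm6a 7 each, Gm14496 6, and Polr3k, Gm31371 and Zfp385b 5 each. Neighbouring genes share regions under this rule, so the 8 of Ube2e3 were also among the 13 of Cwc22, and the 7 of Adam29 were those of Gpm6a.

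The Cwc22 regions reached 80.0 kb before and 76.3 kb behind its start, and 4 of 13 held an AP-1 motif. All 13 were at least 90% unique, and none had a ChIP-seq peak. Their folds were low for their rank, at 2.33 to 4.59 for Norm-Pro, 2.32 to 4.63 for Norm-Sen, 2.46 to 4.58 for Hyp-Pro and 2.74 to 4.42 for Hyp-Imm, where the medians over all 783 regions were 5.81, 5.41, 5.88 and 5.58. In Norm-Pro the percentiles of the 13 ran from 79.5 to 99.7. The widest gap was in the region 46.5 kb behind the start, at 79.5 in Norm-Pro and 1.92 in Hyp-Pro.

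**Figure D5:**
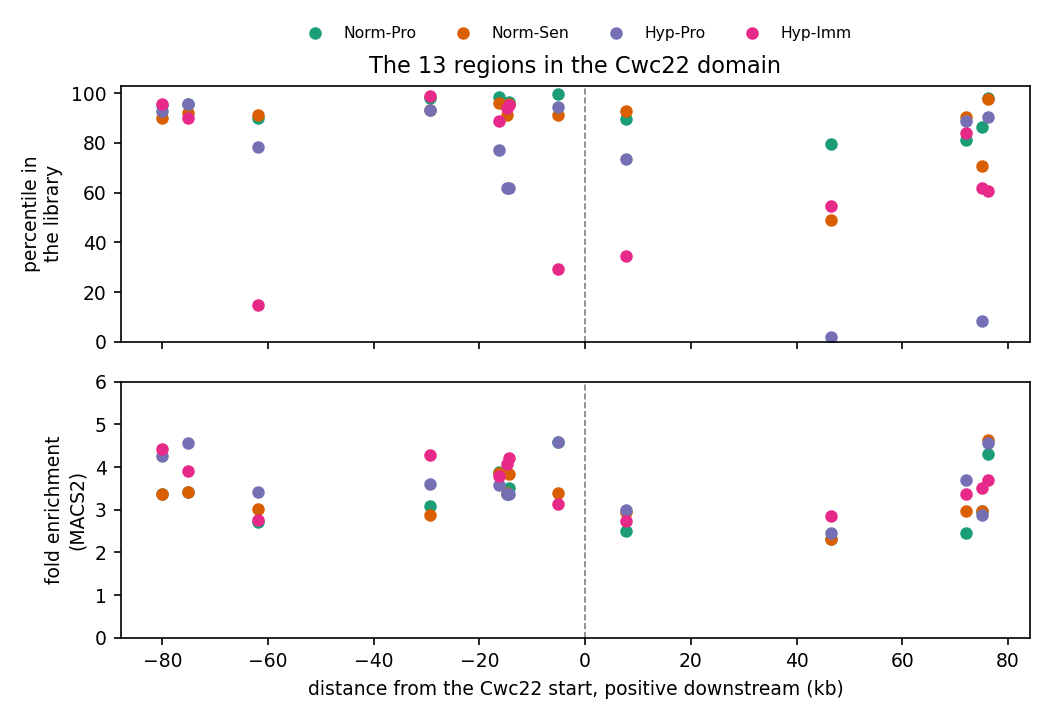
The 13 regions in the Cwc22 domain by distance (kb) from the start of the gene, with the percentile by −log10 q in each library above and the MACS2 fold enrichment below, 1 point per library. Folds stayed between 2.32 and 4.63 while percentiles ran from 1.92 to 99.7.

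The Sfi1 regions reached from 2.71 kb before to 69.6 kb behind its start, 8 of them inside introns. The region 19.8 kb downstream had percentiles of 98.3, 99.8, 98.7 and 97.2, and that 8.72 kb downstream carried a ChIP-seq peak with ATAC-seq folds of 3.27, 2.89, 3.18 and 4.49. In the Adam29 and Gpm6a domains all 7 regions were repeated sequence. In the Gm15319 domain 7 of 8 were, and 3 of 8 held a CTCF motif.

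Lists of genes were taken with their own counts beside the 5.23% of all genes, and longer domains have more room for a region. A region was counted once for every gene whose domain held it, so the rates below count pairs of gene and region. Per 1000 pairs with a distal region, all genes had 5.40 with a region open in all 4 libraries (1395 of 258102). On this scale matrix genes had 5.43, fibroblast transcription factors 7.22, YAP and TEAD targets 6.87 and secreted factors 3.75. Pluripotency genes had 10.1, HIF targets 11.8, CDK inhibitors and p53 targets 16.9 and imprinted genes 17.4. Cell cycle genes had 18.1, actin genes 23.1 and AP-1 genes 30.5. Of 12 AP-1 genes 4 had a region in their domain, Fos with 2 and Atf3, Fosl2 and Jun with 1 each. The Fos regions were CpG-rich, 18.5 kb upstream and 12.2 kb downstream, with percentiles of 97.1, 98.7, 93.9 and 54.1, and of 96.1, 93.4, 89.7 and 58.3. Both were lowest in Hyp-Imm, as were 340 of all 783 regions (43.4%). The Fosl2 region, 56.4 kb downstream, held an AP-1 motif and stood at 20.8, 83.8, 79.8 and 72.3.

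Among 22 CDK inhibitor and p53 target genes 6 had one, among them Plk2 with 2, Sesn2, Btg2 and Cdkn1a. Btg2, an antiproliferative gene, had a CpG-rich region 14.0 kb upstream at 98.5, 98.1, 92.0 and 25.2. Sesn2, a stress gene that restrains mTORC1, had one 5.13 kb upstream at 91.9, 93.5, 10.4 and 93.6. So in the first Hyp-Imm was low and in the second Hyp-Pro.

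Of 26 HIF target genes 3 had a region. Pfkfb3, a glycolytic regulator, had one with an AP-1 motif 124 kb downstream at 96.97, 94.0, 97.7 and 29.8 and one 18.5 kb downstream at 92.0, 97.02, 96.6 and 92.3. The P4ha2 pair, 40.1 kb and 40.4 kb downstream of this collagen prolyl hydroxylase gene, stood above the 99th percentile in all 4 libraries. The first was repeated sequence. Each matched another of the regions, the first over 119 bp and the second over 56 bp. Both were among the 5 regions counted for HIF targets. Ddit4, an mTORC1 inhibitor, had one 52.1 kb downstream at 94.7, 92.5, 92.5 and 67.7.

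Of 17 actin and contractile genes 4 had one. Actb had a region with an AP-1 motif 14.2 kb upstream at 92.5, 98.9, 98.7 and 76.8. Actg1 had 2, the nearer 1.84 kb upstream at 97.5, 92.3, 93.9 and 90.5, while those of Myh9 and Actn1 were lowest in Hyp-Imm, at 10.8 and 6.59. Of 30 matrix genes 4 had one. The Col1a1 region 7.23 kb upstream stood at 97.5, 86.2, 77.6 and 42.6, that of Sparc 5.16 kb upstream at 91.4, 95.8, 93.8 and 27.99, and those of Timp2 and Col6a3 at 14.7 and 55.1 in Hyp-Imm. In each of these 4 the lowest percentile was that of Hyp-Imm, as it was in 340 of all 783 regions (43.4%).

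Of 22 imprinted genes 8 had a region. The Peg3 region, in an intron 1.80 kb downstream of the start, stood at 93.3, 81.8, 94.5 and 15.2. Peg10 and Sgce share 1 region, at 92.9, 42.4, 96.4 and 50.4. Plagl1 had a CpG-rich one at 90.02, 96.7, 80.2 and 97.2. The regions of Peg3 and of Peg10 and Sgce were highest in the passage 1 libraries, while that of Plagl1 was highest in Norm-Sen and Hyp-Imm. The remaining genes of this list are not described here.

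Of 32 cell cycle genes 4 had one, namely Ccne1 with 2, Aurkb, Ccnd3 and Ccnd2. The Ccnd3 region, 6.20 kb downstream in an intron with an AP-1 motif, stood at 91.3, 92.9, 89.5 and 91.9. Of 30 fibroblast transcription factor genes 6 had one, among them Creb3l1 and Klf4 with 2 each, Twist2 and Runx1. The Runx1 region, 361 kb upstream, held an AP-1 motif and stood at 73.1, 44.6, 58.1 and 72.3. Of 16 YAP and TEAD target genes found, Ajuba and Tead4 had one, and of 35 genes of secreted factors of senescent cells Tgfb1 and Igfbp5 had one. That of Tgfb1 held both a CTCF and an AP-1 motif.

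Of 28 pluripotency and stemness genes 5 had one, with 3 regions for Jarid2, and 2 each for Ezh2, Tfcp2l1 and Klf4. The third Jarid2 region lay 865 kb upstream, at a non-coding start with a CTCF motif. The Tfcp2l1 regions were a CTCF one 129 kb upstream at 93.9, 49.6, 83.5 and 72.3 and one 406 kb downstream at 30.8, 53.3, 79.4 and 82.8, and neither carried a Tfcp2l1 ChIP-seq peak. No region fell in the domains of 39 Hox genes, whose median length was 14.8 kb against 89.7 kb for all genes. The same count of 0 was found for 13 CTCF and cohesin, 12 blood and 14 neural genes.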

How the data were processed

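Peak lists of 4 ATAC-seq and 2 ChIP-seq libraries were analysed. For ATAC-seq the authors aligned 49-base reads to GRCm38 with Bowtie2, dropped pairs spanning over 2 kb, moved each read start to where Tn5 cut, and ran MACS2 on each library separately (FDR 0.05). Tfcp2l1 ChIP-seq was made by ChIPmentation, and the labels name Bowtie and MACS2. The deposited fold is the ratio of pileup to local background, the deposited −log10 p and −log10 q belong to the summit, and the deposited score follows −log10 q. Fold and −log10 q were used as values and ranks within a list, and −log10 p and score were not used. The lists hold no read counts, so read depth was not used.

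Peaks were merged where they overlapped or touched, and a region belonged to a library with 1 bp of overlap. The TSS of every transcript of a protein-coding gene came from GENCODE vM21. Motif search (numpy 2.4.6, numba 0.67.0) was tested on simulated data, where 10000 of 10000 planted sites were found. Shared sequence was found with BLAST+ 2.17.0+. Shares carry exact 95% Clopper-Pearson intervals.

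Named were the 12 regions with the highest lowest percentile, the 3 best with a CTCF motif, an AP-1 motif or a ChIP-seq peak, up to 8 gene domains with most regions, and up to 4 genes of each of 15 lists, 350 genes in all. Other names were chosen after values were seen, as stated there. The regions, lists and motifs were chosen with earlier results of these data known. Alternatives covered the TSS set, distance, coverage, uniqueness, chromosomes, peak threshold, peak number, each library left out, and the motif window and mismatches.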

Additional observations from a re-analysis of the deposited data

How the results depend on the processing

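The number of regions and 3 shares were recomputed under other settings, and a share is called moved when it left its exact 95% interval or a count when it changed by over 1.5 times. With TSSs of gene records alone there were 1243 regions, with AP-1 at 10.5% and a Tfcp2l1 ChIP-seq peak at 5.15%. Where each library had to cover 50% of a region there were 361, with AP-1 at 10.0% and a ChIP-seq peak at 13.0%. Peaks with a −log10 q of at least 5 left 251 regions, with CTCF at 5.42%, AP-1 at 5.83% and a ChIP-seq peak at 17.9%. Without regions under 90% unique AP-1 was at 18.5% and a ChIP-seq peak at 4.76%. In a window of 100 bp CTCF was at 5.44% and AP-1 at 9.69%, and in whole regions they were at 11.3% and 17.7%. No mismatch gave CTCF 1.99% and 2 mismatches 22.4%, against 0.740% and 14.99% of all merged regions. With alternatives chosen after seeing the data, a ChIP-seq peak was at 4.56% without regions that match another of them and at 2.73% without any repeated, matching, ribosomal, mitochondrial or scaffold sequence. Leaving out each library gave 968 to 2020 regions, CTCF at 9.26% to 11.7%, AP-1 at 13.7% to 20.7% and a ChIP-seq peak at 3.66% to 6.80%, with the values farthest from those reported without Hyp-Imm. The cause of these changes was not tested beyond what the settings themselves remove. The other alternatives, among them TSSs of all genes, a distance of 5 kb, autosomes alone and equal numbers of peaks per library, left each value within its limits. No paired analysis was possible because each condition had 1 library and no test was made. With 1 library per condition, counting intervals understate the error of every value, and the lists hold no reads from which depth at a region could be read.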

Other observations

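Other letters searched in the 753 regions of the main chromosomes gave shares that are listed here as values. The TFAP2 letters GCCNNNGGC were in 19.0% (95% interval 16.2 to 21.98) of them, in 13.9% of distal regions open in 3 libraries and in 28.3% of promoter regions open in all 4. The hypoxia response letters, which HIF binds, were in 6.11% (4.51 to 8.06) against 3.27% of distal regions open in 3 libraries, 3.00% of all merged regions and 6.27% of promoter regions open in all 4. The TEAD letters ACATTCCA were in 7 regions (0.930%), against 1.98% of distal regions open in 3 libraries. The Tfcp2l1 motif was in 7 (0.930%), against 0.669% of all merged regions. The p53 motif was in 1, and the NFI motif was in 0 of 753, with an interval up to 0.489%. Shares of these motifs over all merged regions are not given here, so the counts show nothing particular to the regions.

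CTCF motifs have a direction, and loops between CTCF sites tend to join motifs that point towards each other. The 64 regions with a CTCF motif gave 47 neighbouring pairs on a chromosome, of which 7 lay within 2 Mb. Of these 7, 4 pointed towards each other, 3 in the same direction and 0 apart. This is a count of few pairs with no test, and the exact consensus was present in 15 of the 64.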
